A study of Mus musculus with 12 samples.

Results

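The metabotropic glutamate receptor genes Grm2, Grm3, Grm4, Grm5, Grm7 and Grm8 were followed across all groups of an RNA-seq study of the mouse medial prefrontal cortex. They were found by gene name, with all table rows of a name added together, and they were 6 of the 55678 gene names in the deposited table. All 6 passed the filter on low values (1 TPM or more in 3 or more libraries), as did 16423 names in all. TPM is a transcript level scaled for transcript length and for the library's total, so levels of different genes can be set side by side.

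The study compared C57BL/6JmsSlc mice (B6 below) with BALB/cCrSlc mice (BALB/c below), each as handled controls or after chronic restraint stress (CRS). CRS meant confinement in a restrainer for 6 h a day on 21 days in a row, and all mice were 9 to 10 weeks old. Each of the 4 groups had 3 libraries, each from 1 mouse, made from a 1.5-mm tissue punch taken once behavioural tests were over. The animal numbers 9, 12 and 13 occur in both strains, for different mice. No transgene or deletion is named for any group, and the labels used here give no sex, litter or batch. The p-values measure the spread between these mice. Sequencing depth per library is unknown, because TPM keeps no depth.

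Metabotropic glutamate receptors are G protein-coupled receptors that tune synapses rather than carry current. Group I receptors, which include mGluR5 (Grm5), couple to Gq, phospholipase C and calcium release and sit mostly at the postsynaptic membrane. Group II receptors (mGluR2 from Grm2 and mGluR3 from Grm3) and group III receptors (mGluR4, mGluR7 and mGluR8 from Grm4, Grm7 and Grm8) couple to Gi/o, lower cyclic AMP and act largely as brakes on transmitter release. In the cortex mGluR2 is mainly neuronal, mGluR3 is found in both neurons and astrocytes, and mGluR5 is abundant in neurons of cortex and striatum.

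Grm2 was the 1 member of 6 whose strain difference passed the test averaged over treatments, where 18.4% of all genes passed. It was 2.20 times as high in BALB/c as in B6 over all libraries, at 24.1 ± 6.22 against 11.0 ± 6.68 TPM (mean ± SD, n = 6 each). No member passed the test for a change with CRS in either strain. Grm8 was also higher in BALB/c than in B6 under CRS, with no overlap of the libraries, as in 9.29% of all genes. It did not pass the test in the main fit. The averaged strain differences of Grm8, Grm4 and Grm5 had adjusted p values of 0.0705, 0.116 and 0.135 (limma). Grm2 was low in the libraries where marker genes of striatal neurons were high, and those values are given with it. With the level of those markers as a covariate, its averaged strain difference was 0.04 (adjusted p 0.939, limma). In bulk tissue, fewer cells of a type and less RNA per cell cannot be told apart.

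The sequences upstream of Grm2 and Grm8 are shown because these members were the pair with the highest Pearson r over the 12 libraries (0.758). On deviations from the group means their r was 0.452, below that of 5 other pairs, the highest of which was Grm2 with Grm7 (0.686). RefSeq's promoter table held 4 of the 6 members (Grm2, Grm3, Grm7 and Grm8). Each sequence covers the 250 bases before the annotated start on GRCm38.p6, written 5′ to 3′ on the gene's strand. Capitals mark GGGCGG, the core letters of a GC box, which is the kind of site bound by Sp1-type factors.
Grm2, chr9:106656110-106656359, minus strand: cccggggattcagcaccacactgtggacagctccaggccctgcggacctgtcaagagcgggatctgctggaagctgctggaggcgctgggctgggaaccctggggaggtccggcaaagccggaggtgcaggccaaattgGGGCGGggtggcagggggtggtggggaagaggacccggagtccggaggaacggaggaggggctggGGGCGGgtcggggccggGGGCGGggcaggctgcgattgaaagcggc
Grm8, chr6:28135147-28135396, minus strand: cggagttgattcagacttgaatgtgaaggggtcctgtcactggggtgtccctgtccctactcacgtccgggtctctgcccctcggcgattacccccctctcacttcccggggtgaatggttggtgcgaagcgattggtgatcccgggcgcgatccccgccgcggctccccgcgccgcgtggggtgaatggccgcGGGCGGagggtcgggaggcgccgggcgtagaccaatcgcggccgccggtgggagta
The Grm2 window held GGGCGG 3 times and the Grm8 window, the most upstream of 3 listed starts, held it 1 time. Both strands were searched, and the matches shown do not overlap. At least 1 match was found in 32.7% of the 32851 promoter windows of the same length, at least 2 in 16.7% and at least 4 in 4.1%. The Grm2 window was 71.2% G and C with 16 CG dinucleotides, and the Grm8 window was 68.4% G and C with 29, against medians of 52.4% and 6 over all windows. Neither window held TGACGTCA, the letters of a cyclic AMP response element, which 1.5% of windows held. Neither held TATAAA, which marks some core promoters and was in 12.4% of windows. AGAACA, part of the glucocorticoid receptor's response element, was in 16.1% of windows and in neither of these. The window of the most downstream Grm8 start, at chr6:28126427-28126676 and with 43.6% G and C, held AGAACA 1 time.

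The 6 genes lie on 5 chromosomes of GRCm38 (GENCODE M21). Grm2 (ENSMUSG00000023192.12) is the smallest, at chr9:106643095-106656082 on the minus strand, a span of 13.0 kb. The others span far more: Grm3 at chr5:9485541-9725170 (minus strand, 239.6 kb), Grm4 at chr17:27422387-27521403 (minus strand, 99.0 kb) and Grm5 at chr7:87584168-88134907 (plus strand, 550.7 kb). Grm7 at chr6:110645581-111567230 (plus strand, 921.6 kb) and Grm8 at chr6:27275119-28135178 (minus strand, 860.1 kb) share a chromosome. No transcript of another gene matched a member on the same strand over at least 150 bases at 95% identity or more.

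The order of the mean levels over the 12 libraries was Grm5 (61.5 ± 13.6 TPM, mean ± SD), Grm3 (37.9 ± 5.61 TPM), Grm7 (25.3 ± 3.40 TPM), Grm2 (17.5 ± 9.22 TPM), Grm8 (11.0 ± 3.27 TPM) and Grm4 (9.03 ± 3.21 TPM). Grm5 was above Grm3, and Grm3 above Grm7, in 12 of 12 libraries. Lower down the order was less fixed: Grm7 was above Grm2 in 9 of 12 libraries, Grm2 above Grm8 in 10 and Grm8 above Grm4 in 8. Members were not tested against each other. The mean of Grm8 was below that of Grm4 in B6 and above it in BALB/c, but not in every B6 library. In B6, Grm7 and Grm2 were 25.2 ± 3.15 and 11.0 ± 6.68 TPM (mean ± SD, n = 6). In BALB/c they were 25.4 ± 3.95 and 24.1 ± 6.22 TPM. Grm8 and Grm4 were 9.21 ± 3.49 and 10.8 ± 3.61 TPM in B6, against 12.8 ± 1.91 and 7.26 ± 1.47 TPM in BALB/c. Within B6, Grm8 was above Grm4 in controls 3 and 9, and below it in control 2 and CRS mice 12, 13 and 14. The libraries with Grm8 below Grm4 were those with the high striatal marker levels given below. Grm6, a receptor of retinal bipolar cells from the same family, was listed at 0 in all 12 libraries. Grm2 was also the member with the widest spread, its highest library being 6.61 times its lowest, against 1.56 to 2.73 times for the other 5.

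**Figure D1:**
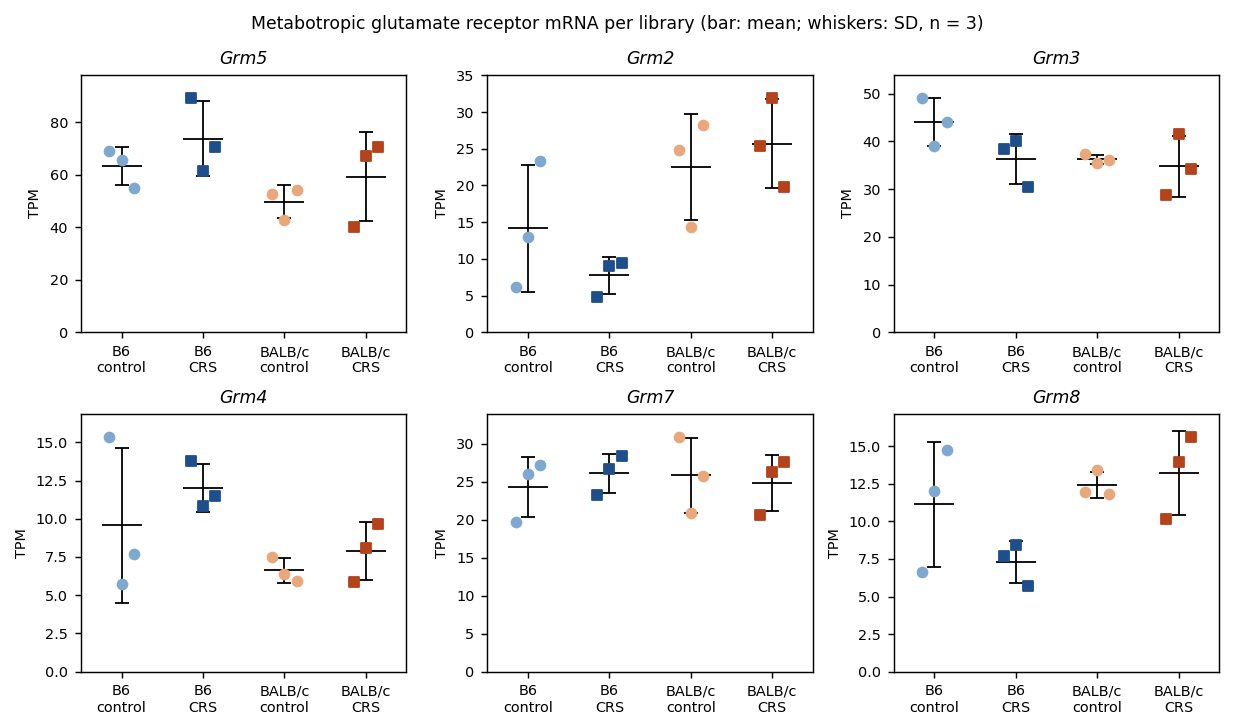
TPM of each receptor gene (y axis, from 0) in the 4 groups (x axis), with 1 point per library, a bar at the mean and whiskers of 1 SD (n = 3). Grm2 is between 4.83 and 9.42 TPM in the B6 CRS libraries and between 19.8 and 31.9 TPM in the BALB/c CRS libraries, while Grm7 lies between 19.8 and 30.9 TPM everywhere.

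Grm2 was measured in B6 controls at 6.22, 13.0 and 23.3 TPM (animals 2, 3 and 9). The B6 CRS libraries gave 4.83, 9.03 and 9.42 TPM (animals 12, 13 and 14). In BALB/c controls it was 24.9, 14.4 and 28.2 TPM (animals 5, 9 and 10), and in BALB/c CRS mice 25.4, 31.9 and 19.8 TPM (animals 12, 13 and 15). The CRS groups of the strains did not overlap, with BALB/c higher, as in 9.29% of all genes. Among controls, B6 control 9 lay inside the BALB/c range. A BALB/c library was above a B6 library in 34 of 36 pairs over both treatments, in 8 of 9 pairs of controls and in 9 of 9 pairs of CRS mice.

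Differences below are BALB/c minus B6 of log2(TPM + 1), so changes of low genes come out smaller than their TPM ratio. They were tested with limma across all 16423 genes with Benjamini-Hochberg adjustment and a threshold of 0.05. Averaged over the treatments, Grm2 was higher in BALB/c by 1.19 (SE 0.28, 95% interval 0.58 to 1.80, adjusted p 0.0129). Under CRS it was higher by 1.63 (SE 0.40, 95% interval 0.77 to 2.50, adjusted p 0.0292), a ratio of mean TPM of 3.31. Among controls the difference was 0.75 (SE 0.40, adjusted p 0.345), and B6 controls spread 3.75-fold from lowest to highest. Grm2 was thus the 1 of 6 members called in the averaged contrast, in which 18.4% of all genes were called (4.05% higher, 14.3% lower). It was also the 1 of 6 called under CRS, in which 7.7% of all genes were called (2.37% higher, 5.33% lower). In controls no member was called, against 4.73% of all genes (1.36% higher, 3.37% lower). The median of all genes was itself shifted, by -0.10 in controls, -0.06 under CRS and -0.08 averaged, and median-of-ratios scaling moved these medians to 0.01, 0 and 0.01. Under that scaling 46.5% of the genes called in the averaged contrast were higher in BALB/c, against 22% of them on TPM as deposited. The corresponding shares were 46.9% against 28.8% in controls and 46.2% against 30.8% under CRS. Grm2 kept its direction in these contrasts under that scaling.

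The call under CRS was lost when B6 CRS 12 was left out (1.36, adjusted p 0.120), and also without B6 CRS 13 (adjusted p 0.0537), BALB/c CRS 12 (0.0917) or BALB/c CRS 13 (0.0942). With no filter on low values it had an adjusted p of 0.0727. The averaged difference stayed past the threshold in all 12 fits that left out 1 library, between 0.96 and 1.40.

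**Figure D2:**
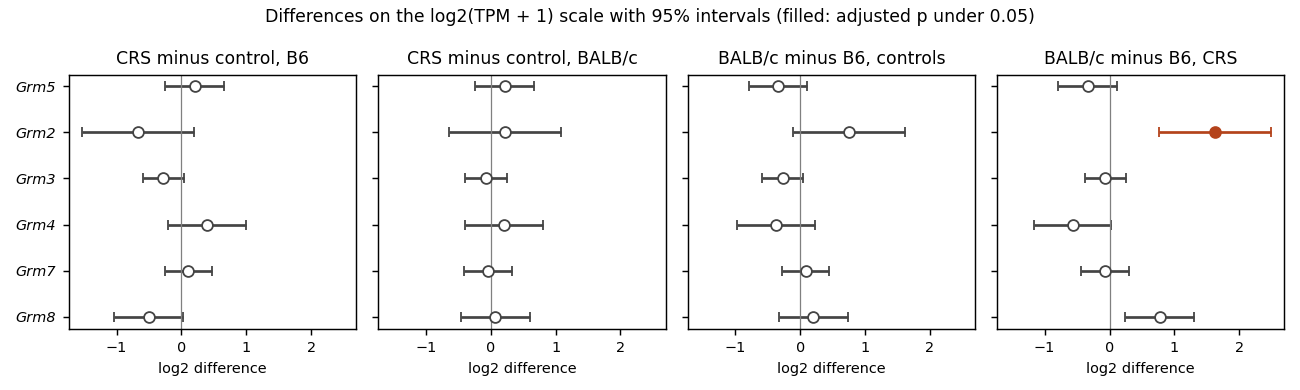
Differences of each receptor gene on the log2(TPM + 1) scale (x axis) with 95% intervals from limma, for CRS against control in each strain and BALB/c against B6 in each treatment. The single filled point is Grm2 under CRS, at 1.63, and every interval spans 0 in both panels of CRS against control.

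Marker genes in the same libraries were checked against the labelled tissue. The 9 excitatory cortical neuron markers were all measured, with summed levels of 604 to 1421 TPM in B6 controls, 550 to 1060 TPM in B6 CRS mice, 1074 to 1202 TPM in BALB/c controls and 1053 to 1232 TPM in BALB/c CRS mice. Averaged over treatments, 8 of 9 had positive strain differences (median 0.36), the direction of Grm2. Of the 9, 3 were called higher in BALB/c (Neurod6 and Cux2 among them) and 1 lower (Foxp2), against 4.05% and 14.3% of all genes. Under CRS their median was 0.52, and 1 of the 9 was called higher (Neurod6) and 0 lower, against 2.37% and 5.33% of all genes. The part of these markers in the Grm2 result was not tested. The 9 markers of striatal medium spiny neurons (dopamine receptor genes Drd1 and Drd2 and the peptide precursors Penk and Tac1 among them) were above 0 in every library. Their sum was 2961, 490 and 233 TPM in B6 controls 2, 3 and 9. In B6 CRS mice 12, 13 and 14 it was 2425, 1827 and 1031 TPM. In BALB/c it ran from 135 to 417 TPM in controls and from 153 to 203 TPM under CRS. Thus 4 B6 libraries, which include all 3 of the B6 CRS group, stood at 1031 TPM or above, apart from the other 8 at 490 TPM or below. Of the 9 striatal markers, 9 were called lower in BALB/c averaged over treatments and 8 under CRS, against 14.3% and 5.33% of all genes. The 8 myelin markers summed to between 2486 and 9576 TPM in B6 and between 474 and 3052 TPM in BALB/c. Averaged over treatments, 8 of 8 were called lower in BALB/c, against 14.3% of all genes.

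The 4 lowest Grm2 levels were in the 4 libraries with striatal sums of 1031 TPM or above. B6 control 9, with the lowest striatal sum in B6 (233 TPM), had the highest Grm2 of that strain (23.3 TPM). BALB/c control 9, with the highest striatal sum in BALB/c (417 TPM), had the lowest Grm2 of that strain (14.4 TPM). The same libraries had the lowest myelin sum in B6 (2486 TPM) and the highest in BALB/c (3052 TPM). Grm2 did not follow either sum in every library. BALB/c CRS 13 had the highest Grm2 (31.9 TPM) beside a striatal sum of 162 TPM and a myelin sum of 1442 TPM, neither the lowest. B6 CRS 12 had the lowest Grm2 (4.83 TPM) beside a striatal sum of 2425 TPM and a myelin sum of 4933 TPM, neither the highest. With the striatal marker score as a covariate, the averaged strain difference of Grm2 was 0.04 (adjusted p 0.939) and that under CRS was 0.09 (adjusted p 0.938). With the myelin marker score as a covariate they were 0.33 (adjusted p 0.883) and 0.75 (adjusted p 0.737). Without B6 control 2, the control library with the highest striatal sum, the difference in controls was 0.30 (adjusted p 0.751) in place of 0.75. The B6 CRS group could not be examined without its high libraries, since all 3 were high. Striatal marker level and strain cannot be told apart under CRS.

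**Figure D3:**
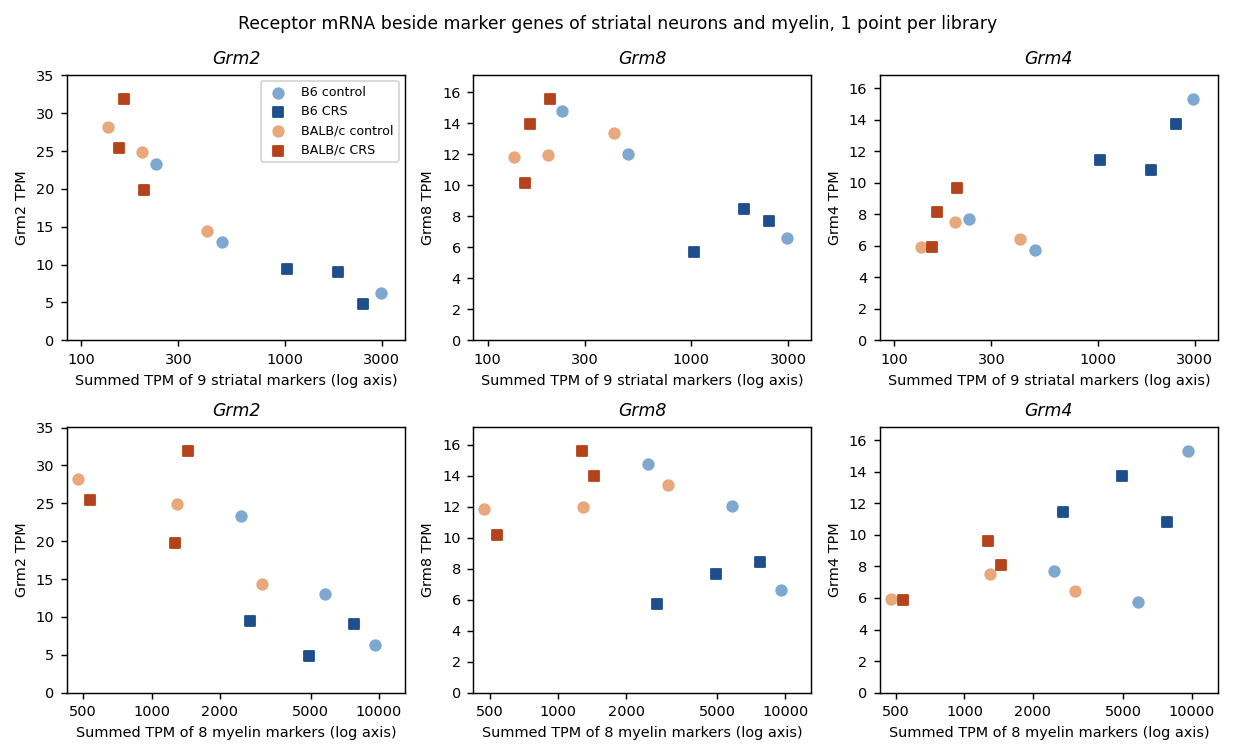
TPM of Grm2, Grm8 and Grm4 (y axes, from 0) against the summed TPM of 9 striatal markers (upper row) and of 8 myelin markers (lower row), both on log axes, with 1 point per library coloured by group. Grm2 is 28.2 TPM at the lowest striatal sum (135 TPM) and 6.22 TPM at the highest (2961 TPM), and Grm4 is highest (15.3 TPM) in that last library.

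Grm3, the other group II receptor, differed less. It was 49.1, 39.1 and 44.0 TPM in B6 controls and 38.5, 40.0 and 30.4 TPM in B6 CRS mice. BALB/c controls gave 37.3, 35.4 and 36.1 TPM, and BALB/c CRS mice 28.7, 41.5 and 34.2 TPM. The BALB/c controls lay below all B6 controls, as did the controls of 18.7% of all genes, and the difference of -0.27 was not called (SE 0.15, adjusted p 0.359). Under CRS the libraries overlapped, and the difference was -0.06 (adjusted p 0.835, limma). The averaged difference was -0.17 (adjusted p 0.297). The ratio of Grm2 to Grm3 TPM ran from 0.126 to 0.530 in B6 and from 0.406 to 0.886 in BALB/c.

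Grm5, the group I member, was 69.1, 65.7 and 55.0 TPM in B6 controls and 89.2, 61.2 and 70.5 TPM in B6 CRS mice. It was 52.5, 42.6 and 54.0 TPM in BALB/c controls and 39.9, 67.2 and 70.6 TPM in BALB/c CRS mice. As with Grm3 and with 18.7% of all genes, all BALB/c controls were below all B6 controls. The CRS groups of Grm5 overlapped. The differences were -0.34 in controls and -0.33 under CRS (adjusted p 0.419 and 0.364, limma). The averaged strain difference was -0.34 (SE 0.15, 95% interval -0.66 to -0.02, unadjusted p 0.0397) and was not called after adjustment (adjusted p 0.135, limma). Grm5 made up 32.0% to 50.3% of the summed TPM of the 6 receptors in B6 libraries and 30.5% to 39.8% in BALB/c libraries.

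Grm4 was 15.3, 5.72 and 7.69 TPM in B6 controls and 13.8, 10.8 and 11.5 TPM in B6 CRS mice. In BALB/c it was 7.53, 6.42 and 5.94 TPM in controls and 5.90, 8.11 and 9.64 TPM under CRS. All BALB/c CRS libraries were below all B6 CRS libraries, a separation in this direction that 20% of all genes showed, while controls overlapped. The difference was -0.57 under CRS (adjusted p 0.233, limma) and -0.37 in controls (adjusted p 0.514). The averaged difference was -0.47 (SE 0.19, 95% interval -0.89 to -0.05) with an adjusted p of 0.116 (limma), which became 0.0403 without B6 control 3. Grm4 moved in the same direction as the striatal markers: its 4 highest libraries were the 4 with striatal sums of 1031 TPM or above. The averaged difference turned to 0.08 with the striatal score as a covariate (adjusted p 0.893) and was -0.29 without B6 control 2 (adjusted p 0.196).

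Grm8 was 6.62, 12.0 and 14.8 TPM in B6 controls and 7.68, 8.45 and 5.72 TPM in B6 CRS mice. It was 12.0, 13.4 and 11.8 TPM in BALB/c controls and 10.1, 14.0 and 15.6 TPM in BALB/c CRS mice. The CRS groups did not overlap, with BALB/c higher, as in 9.29% of all genes. Under CRS the difference was 0.78 (SE 0.24, 95% interval 0.24 to 1.31, adjusted p 0.0758, limma) and averaged it was 0.49 (SE 0.17, adjusted p 0.0705), so neither was called. In controls it was 0.21 (adjusted p 0.716). Median-of-ratios scaling brought both past the threshold, at 0.83 (adjusted p 0.0488) and 0.58 (adjusted p 0.0314), and leaving out B6 control 9 gave 0.60 for the averaged difference (adjusted p 0.0203). Its 4 lowest libraries were the 4 with striatal sums of 1031 TPM or above, and with the striatal score as a covariate the differences were 0.22 and 0.08 (adjusted p 0.845 and 0.895).

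Grm7, a presynaptic receptor with low affinity for glutamate, was the most even over the groups. It was 19.8, 26.0 and 27.1 TPM in B6 controls and 23.3, 26.6 and 28.3 TPM in B6 CRS mice. BALB/c controls gave 30.9, 20.9 and 25.8 TPM, and BALB/c CRS mice 20.7, 26.3 and 27.7 TPM. All groups overlapped, a BALB/c library was above a B6 library in 18 of 36 pairs, and the averaged difference had a 95% interval of -0.26 to 0.27 (adjusted p 0.983, limma). The differences were 0.08 in controls and -0.07 under CRS (adjusted p 0.847 and 0.839).

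No member was called for CRS. In B6, where 0% of all genes were called (4.82% at an unadjusted p under 0.05), the differences of CRS from control ran from -0.67 for Grm2 to 0.40 for Grm4, each with an adjusted p of 1 in limma. Between these lay Grm8 (-0.50), Grm3 (-0.28), Grm7 (0.11) and Grm5 (0.21). Mean Grm2 in B6 was 14.2 ± 8.62 TPM in controls and 7.76 ± 2.55 TPM under CRS (mean ± SD, n = 3), and the 95% interval of its difference was -1.53 to 0.19. That of Grm8 was -1.04 to 0.03, from means of 11.1 ± 4.15 and 7.28 ± 1.41 TPM. Striatal sums were 1031 TPM or above in B6 CRS 12, 13 and 14, but among B6 controls only in control 2. Over the 7 alternatives that kept all libraries, marker covariates among them, the Grm2 difference ran from -0.73 to -0.05. That of Grm8 ran from -0.55 to -0.28 and that of Grm4 from 0.10 to 0.46. The cause of these shifts was not tested. In BALB/c, where 0.00609% of all genes were called (3.03% unadjusted), the differences ran from -0.07 for Grm3 to 0.21 for Grm2 and Grm5, with Grm7 at -0.05, Grm8 at 0.07 and Grm4 at 0.20. Grm2 averaged 22.5 ± 7.23 TPM in BALB/c controls and 25.7 ± 6.06 TPM under CRS, with an interval of -0.65 to 1.08. Averaged over the strains, 0 of 6 members were called, with 0.00609% of all genes called (5.17% unadjusted). These differences were -0.23 for Grm2, -0.22 for Grm8, -0.17 for Grm3, 0.03 for Grm7, 0.21 for Grm5 and 0.30 for Grm4. None of the 6 members had an unadjusted p under 0.05 in any CRS contrast, and in none of them were the CRS and control libraries of a strain apart without overlap, against 8.33% of all genes in B6 and 7.39% in BALB/c.

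The difference between the strains in the CRS response, an interaction term, was not called for any member either, with 0% of all genes called (2.7% unadjusted). It was largest for Grm2, at 0.88 (SE 0.56, 95% interval -0.34 to 2.11, adjusted p 1.00, limma), and next for Grm8, at 0.57 (95% interval -0.18 to 1.32). For the other members it was 0.20 (Grm3), 0.01 (Grm5), -0.16 (Grm7) and -0.19 (Grm4). Over the 7 alternatives that kept all libraries, the interaction ran from 0.08 to 0.95 for Grm2 and from 0.29 to 0.62 for Grm8. The strain contrasts in controls and under CRS of Grm2 (0.75 and 1.63) were therefore not shown to differ.

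The deposited table gives several rows per gene name without transcript identifiers, 32 rows for the 6 genes, and row numbers here count from 1 within a name. Grm3 had 1 row. Row 2 of Grm2 carried 71.8% of its TPM and row 3 carried 27.4%, and the strain difference had the same sign in both. It was 1.15 in row 2 (SE 0.31, adjusted p 0.0525) and 0.95 in row 3 (SE 0.32, adjusted p 0.115) in a limma fit over 46000 rows, of which 6.05% were called. Row 2 of Grm4 held 89.8%. Grm5 was spread over rows 3, 5 and 4 (57.1%, 25.1% and 15.2%), and all 3 had a negative averaged strain difference, between -0.42 and -0.27. In Grm7, row 3 held 61.0% and differed by -0.03, while row 2 differed by 0.49 (adjusted p 0.232) and row 4 by -0.87 (adjusted p 0.150). In Grm8, rows 1, 3 and 2 held 52.8%, 25.0% and 17.6%. Row 2 of Grm8 was listed at 0 in 5 libraries and differed by 1.27 (adjusted p 0.185), against 0.26 for row 1 (adjusted p 0.619). No row of a member was called in any contrast, CRS averaged over strains included, where 0.00435% of all rows were. How an estimator splits reads between rows adds error that these values do not show.

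**Figure D4:**
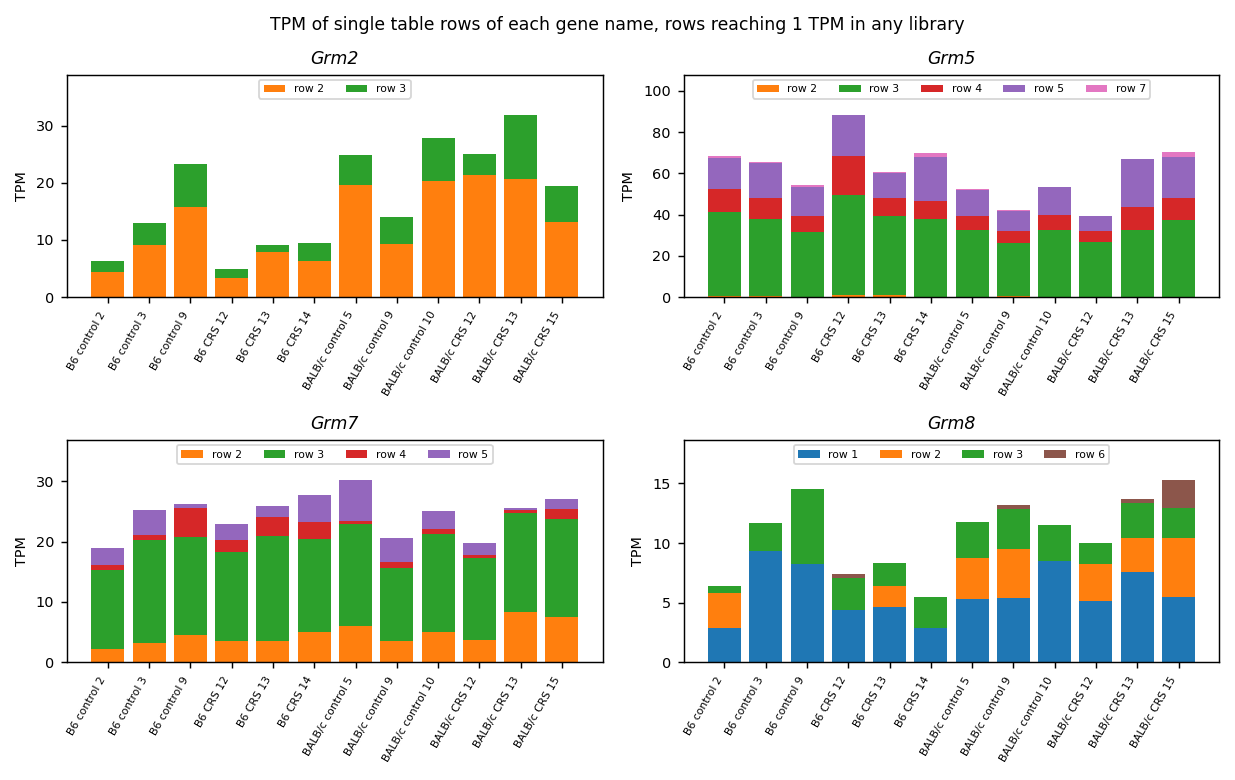
TPM (y axis, from 0) of the single table rows of Grm2, Grm5, Grm7 and Grm8 in each of the 12 libraries (x axis), stacked, for rows that reach 1 TPM in any library. Row 2 of Grm2 is the larger part in every library (64.5% to 87.9%), and row 2 of Grm8 is missing from 5 libraries.

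Genes that overlap the members in the annotation were read from the same table, and their values were chosen for display after they were seen. Gm20387 lies antisense to the start of Grm7, at chr6:110639753-110645916 on the minus strand, and 130 bases of its transcript match Grm7 in reverse. It was 1.51 to 1.95 TPM in the 6 B6 libraries and 0.146 to 0.372 TPM in the 6 BALB/c libraries. The strains did not overlap, as in 6.94% of all genes in this direction. Only B6 libraries reached 1 TPM, so Gm20387 passed the filter on low values through the strain where it was higher. Its p-values are given as a description. Its averaged difference was -1.14 (SE 0.12, adjusted p 4.13e-05, limma), with no call for CRS averaged over strains, and it stayed past the threshold with either marker score as a covariate (highest adjusted p 0.00773). The averaged difference of Grm7 itself was not called. The libraries came from a kit that keeps strand, but whether the quantification used strand is not given in the sources used here, so reads of the shared bases may have been assigned to either gene. Gm28111, antisense to the end of Grm2, was listed at 0 in all 12 libraries.

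The genes around the receptors were described from lists of their partners, with each gene named only if called or, where none was, as the nearest to a call. For the Gq and calcium release list of group I receptors, 0 of 14 tested genes were called in any contrast. Over all genes, 18.4% were called for strain averaged, 4.73% for strain in controls and 7.7% for strain under CRS. For CRS and the interaction the shares were 0% to 0.00609%. Of the list, Dgkz, a diacylglycerol kinase, had the lowest adjusted p for strain averaged (0.49, adjusted p 0.0871, limma). Next was Itpr2, an IP3 receptor (-0.33, adjusted p 0.0957, limma). The list's median strain difference was -0.03, beside -0.08 for all genes. Among the 13 tested scaffold genes that hold mGluR5 at the postsynapse, 0 were called in any contrast, beside the same shares over all genes. Shank1 (0.52, adjusted p 0.104) and Homer3 (-0.50, adjusted p 0.107) were the nearest for strain. Homer1, whose protein binds the tail of mGluR5, was at -0.36 for CRS averaged over strains (unadjusted p 0.0145, adjusted p 0.946, limma).

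Of the 23 Gi/o genes behind group II and III receptors, 2 were lower in BALB/c and 0 higher in the averaged strain contrast. Over all genes, 14.3% were called lower and 4.05% higher in that contrast. Adcy5, the adenylyl cyclase typical of striatum, was 102 ± 50.7 TPM in B6 and 38.1 ± 4.90 TPM in BALB/c (mean ± SD, n = 6 each), a difference of -1.24 (SE 0.28, adjusted p 0.0101, limma). It was also called under CRS (-1.55, adjusted p 0.0345), and that call was lost with no filter on low values (adjusted p 0.0840) and in 5 of the 6 fits without 1 library, all but the one without B6 CRS 14. With the striatal score as a covariate its averaged difference was -0.10 (adjusted p 0.847). Gnb5, the G protein beta subunit that partners RGS7-type regulators, was 131 ± 13.9 TPM in B6 and 102 ± 9.24 TPM in BALB/c (-0.35, adjusted p 0.0213). Median-of-ratios scaling ended the Gnb5 call (-0.26, adjusted p 0.0503), as did leaving out BALB/c control 10 (adjusted p 0.0594). The median of the list was 0.07. The 8 presynaptic partners of group III receptors had 0 calls in any contrast. Over all genes, 18.4% were called for strain averaged and 7.7% for strain under CRS. Elfn1, whose protein binds group III receptors across the synapse, was at 0.25 (adjusted p 0.320, limma) in the averaged strain contrast. The list's median was 0.14.

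For the supply of the ligand, 2 of 12 genes of glutamate release and uptake were lower in BALB/c averaged over treatments and 0 higher. The shares over all genes were 14.3% and 4.05%. The list median was -0.07. Slc17a8, the vesicular glutamate transporter VGLUT3, was 1.50 ± 0.53 TPM in B6 and 0.30 ± 0.17 TPM in BALB/c (-0.93, SE 0.16, adjusted p 0.00261, limma). Only B6 libraries reached 1 TPM of Slc17a8, so it passed the filter on low values through the strain where it was higher. Its levels lay near that limit, and its p-values are given as a description. Its call in controls (-1.04, adjusted p 0.0230) was lost in 4 of 6 fits without 1 library, those without B6 control 2, B6 control 3, BALB/c control 9 or BALB/c control 10. Glul, the astrocytic glutamine synthetase, was 944 ± 55.0 TPM in B6 and 754 ± 59.1 TPM in BALB/c (-0.33, adjusted p 0.00949). Astrocyte markers moved with it: 3 of 8 were called lower in BALB/c averaged over treatments, against 14.3% of all genes. Their summed levels were 1043 to 1236 TPM in B6 and 763 to 962 TPM in BALB/c, and their part in the Glul result was not tested.

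N-acetylaspartylglutamate (NAAG) is a peptide transmitter thought to act on mGluR3. Of 5 tested genes of its metabolism, 2 were lower in BALB/c and 0 higher averaged over treatments, with a median of -0.20. The shares of called genes over all genes were 14.3% and 4.05%. Rimkla, a NAAG synthetase, was 7.38 ± 0.67 TPM in B6 and 4.54 ± 0.97 TPM in BALB/c (-0.61, adjusted p 0.00723, limma). Aspa, the oligodendrocyte enzyme that cleaves N-acetylaspartate, was 20.4 ± 9.88 and 7.32 ± 4.48 TPM (-1.34, adjusted p 0.0243). Aspa moved with the myelin markers, and with the myelin score as a covariate its difference turned to 0.27 (adjusted p 0.837). It also lost its call with no filter (adjusted p 0.0620) and in 7 of 12 fits without 1 library. Those left out B6 control 2 or 3, B6 CRS 12 or 13, BALB/c control 5 or 10, or BALB/c CRS 12, and gave differences from -1.31 to -1.13. Neither marker score as a covariate turned the direction of the other 5 called genes (Adcy5, Gnb5, Slc17a8, Glul and Rimkla), and none of the 5 passed the threshold with either. No list had a called gene in any CRS contrast or in the interaction, where 0% to 0.00609% of all genes were called.

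**Figure D5:**
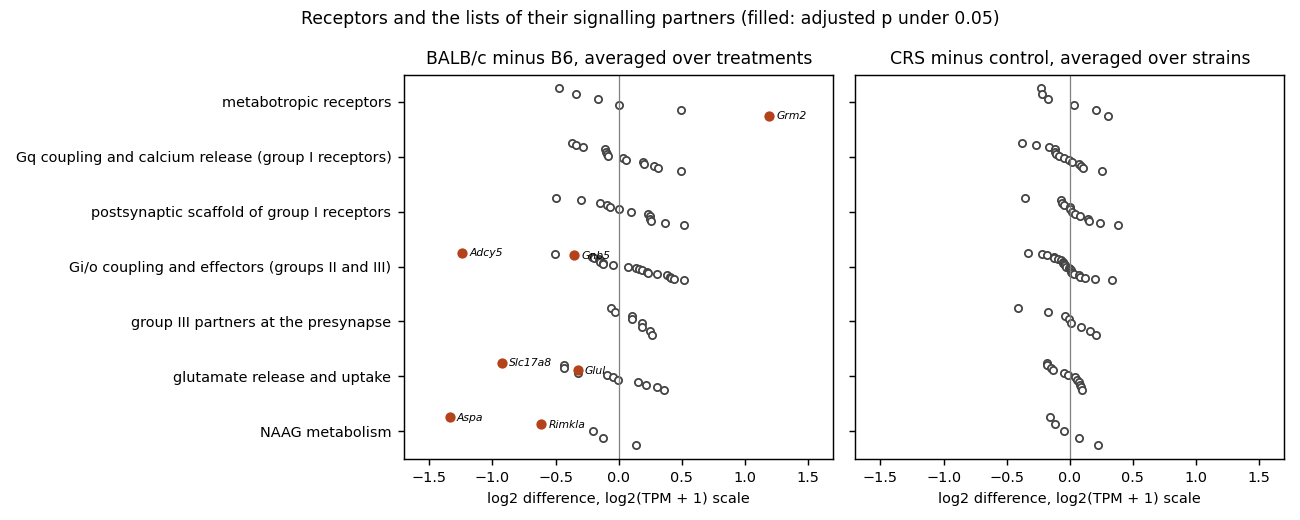
Difference on the log2(TPM + 1) scale (x axis) of each tested gene of the receptor group and of 6 partner lists (y axis), for BALB/c minus B6 averaged over treatments (left) and CRS minus control averaged over strains (right), with filled points for adjusted p under 0.05. On the left 7 points are filled, of which Grm2 (1.19) is the only one above 0, and on the right none is filled.

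The genes most like each member over the 12 libraries were ranked by Pearson r of log2(TPM + 1) among 10489 genes with a mean of at least 5 TPM, as a description. The libraries share strain and treatment, so r was also taken on the deviations from the 4 group means. That step leaves in the tissue makeup that varies within a group, such as striatal sums of 233 to 2961 TPM in B6 controls. Grm2 was closest to Adra1d, an alpha-1 adrenergic receptor (r 0.985, deviations 0.979), Crhr1, the receptor of corticotropin-releasing hormone (0.977, deviations 0.956), and Cck, the cholecystokinin precursor (0.975, deviations 0.951). Like Grm2, Adra1d was low in B6 CRS mice (6.71 ± 2.25 TPM) and high in BALB/c controls and CRS mice (24.9 ± 8.52 and 23.1 ± 5.57 TPM). Grm4 was closest to Gnal, the G protein alpha subunit of striatal neurons (r 0.941), Rap1gap (0.936) and Mchr1 (0.928). Grm5 was closest to Gaa, the lysosomal alpha-glucosidase (0.957), Rasd1 (0.945) and Pdzd2 (0.937). Grm8 was closest to Ncam2, a cell adhesion molecule (0.925), Ephb6 (0.908) and Satb1 (0.908), with lower r on the deviations (0.79 to 0.85). Grm3 was closest to Inppl1 (0.947), Dennd11 (0.903) and Pank3 (0.882), and Grm7 to Crk (0.952), Dcun1d4 (0.936) and Tpgs2 (0.92). Between the members, Grm2 ran opposite to Grm4 (r -0.761, deviations -0.601), and Grm4 ran with Grm5 (r 0.721, deviations 0.522).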

How the data were processed

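RNA-seq of medial prefrontal cortex punches of 12 mice was analysed. Libraries were made with a stranded mRNA kit and sequenced as paired ends, per the labels' protocols. The submitters' processing notes name cutadapt (2.9), Salmon and GRCm38; Salmon's version and the annotation release are not given in the sources used here. The authors deposited TPM values, 147902 rows under 55678 gene names, each library summing to 1000000, so depth is unknown and no count test could be run. All 12 columns were matched to samples by strain, treatment and animal number.

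Rows were summed per gene name. A name was tested where 3 or more libraries reached 1 TPM; log2(TPM + 1) was fitted with limma 3.58.1 (R 4.3.3) with 4 group means and an intensity trend, and p-values were adjusted over all genes by Benjamini-Hochberg, with a call at 0.05. Strain differences are BALB/c minus B6. The fit was tested on simulated data. Rows were also fitted singly. Alternatives were a pseudocount of 0.1, no filter, a mean of at least 5 TPM, median-of-ratios scaling, a replicate block, marker scores as covariates and leaving out each library. Coordinates and transcript matches come from GENCODE M21 (blastn 2.17.0), promoters from RefSeq (GRCm38.p6).

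All 6 members are named in every contrast, list genes where called (otherwise up to 2, of lowest p), and the 3 genes most like each member. Some genes that this rule takes in are not reported here. The members and lists were chosen with earlier results of these data known. Alternatives for the called list genes and Gm20387 were added after seeing the data.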

Additional observations from a re-analysis of the deposited data

How the results depend on the processing

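Of 654 alternative values of the members, 598 kept direction and side of the threshold, 42 turned direction, 10 lost a call and 4 gained one; of the 42 member results, 17 turned in at least 1 alternative, none of them called. The cause was not tested for any of these.

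Genes called for CRS in B6 (0) were 2 with a pseudocount of 0.1, 7 with no filter, 1 with a mean of at least 5 TPM, 1 with the replicate block and 0 to 2 without single libraries. For CRS in BALB/c (1) they were 0 with the pseudocount of 0.1, no filter, the mean of at least 5 TPM, median-of-ratios scaling or the replicate block, 2 with the striatal score and 0 to 1 without single libraries. For CRS averaged (1) they were 2 with no filter, the mean of at least 5 TPM or median-of-ratios scaling, and 0 to 2 without single libraries. For strain in controls (777) they were 437 with the mean of at least 5 TPM, 277 with the myelin score and 428 to 1389 without single libraries. For strain under CRS (1264) they were 702 with the mean of at least 5 TPM, 750 with the replicate block, 236 with the striatal score, 249 with the myelin score and 539 to 894 without single libraries. For strain averaged (3021) they were 1929, 511 (striatal) and 367 (myelin), and 1975 to 3787 without single libraries. For the interaction (0) they were 2 with no filter, 1 with the striatal score and 0 to 2 without single libraries. Single rows called for CRS averaged (2) were 6 with a pseudocount of 0.1.

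The animal numbers 9, 12 and 13 occur in both strains, on different animals, and their deviations from the group means correlated at -0.242, -0.029 and -0.036. These values cannot show whether animals of equal number shared a batch, since the labels give none. With the replicate block Grm2 under CRS had an adjusted p of 0.0691 and averaged 0.0321, the calls of Aspa averaged (0.0535) and Adcy5 under CRS (0.0772) were lost, and Grm7 for CRS in BALB/c turned to 0.064. With no filter Grm2 under CRS had an adjusted p of 0.0727.

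With the striatal score, direction turned in controls for Grm7 (-0.13) and Grm8 (-0.061), under CRS for Grm3 (0.14) and Grm4 (0.18), averaged for Grm4 (0.085), Grm7 (-0.33) and Aspa (0.044), and in the interaction for Grm4 (0.19). With the myelin score it turned in controls for Grm2 (-0.099) and Grm7 (-0.079), under CRS for Grm3 (0.15), and averaged for Grm3 (0.041), Grm7 (-0.16) and Aspa (0.27). Median-of-ratios scaling turned Grm5 in the interaction (-0.052).

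Without single libraries, these ran across 0: for CRS in B6 Grm7 (-0.029 to 0.19); in BALB/c Grm2 (-0.067 to 0.40), Grm3 (-0.20 to 0.054), Grm7 (-0.19 to 0.084) and Grm8 (-0.053 to 0.23); for CRS averaged Grm7 (-0.039 to 0.096). For strain in controls they were Grm7 (-0.054 to 0.22) and Grm8 (-0.099 to 0.43), under CRS Grm3 (-0.20 to 0.062) and Grm7 (-0.15 to 0.050), averaged Grm7 (-0.063 to 0.074), and in the interaction Grm4 (-0.56 to 0.082) and Grm5 (-0.14 to 0.27).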
